A study of Drosophila melanogaster with 4 samples.

Results

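The genes of the mitochondrial respiratory chain and of the mitochondrial ribosome were followed in heads of flies fed tetraethylammonium chloride (TEA), an organic cation that blocks potassium channels. They were all genes whose symbol starts with ND- (complex I), Sdh (complex II), UQCR- (complex III), COX (complex IV), ATPsyn (complex V), mRpL or mRpS (large and small subunit of the mitochondrial ribosome). The rule took 88 of the 6793 genes named on the array, on 101 of its 7558 probes with 1 gene symbol. Of these, 33 genes on 36 probes had a value on at least 3 of 4 arrays and could be tested. Heads of TEA flies came from unmated male Oregon-R wild-type flies fed 16 mg/ml TEA in normal food for 7 days. Control heads came from unmated male Oregon-R flies kept on normal food for the same 7 days. Flies of both groups are labelled 3 to 4 days old at the start. Flies were held at 30 per vial, and each RNA sample was a pool of heads from several vials, so the spread between single flies was not measured. The males were Oregon-R wild type throughout, and females were not studied. Each of 4 biological replicates compared 1 TEA pool with 1 control pool on a 2-colour cDNA array, with TEA in Cy5 in replicates 1 and 2 and in Cy3 in replicates 3 and 4.

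The respiratory chain passes electrons from NADH (complex I) and succinate (complex II) through complex III and cytochrome c to complex IV, which reduces oxygen. The protons pumped on the way drive complex V, the ATP synthase. Most subunits are encoded in the nucleus, while a few core subunits are encoded by mitochondrial DNA and made on the mitochondrial ribosome, whose proteins are all nuclear. Neurons and photoreceptors of the fly head spend much ATP on ion pumping. Drosophila also carries duplicate genes for many respiratory chain subunits, named here with an added L, and many of these duplicates are known for expression in the male germ line.

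All values below are log2 ratios of TEA over control, so a value of 0 means equal signal. No label states which way the deposited ratio runs. It was taken as Cy5 over Cy3, which is the likely direction because the labels list Cy5 as the first channel of every array and name the red channel before the green one in their spot filter. Replicates 3 and 4 were therefore turned in sign. With the opposite convention, Cy3 over Cy5, every sign below would turn. Had the submitters already turned the swapped arrays, the values given below as not turned would be the right ones, and 23 of the 36 member probes would have the other sign. The arrays held values for 5445 to 6252 of 27648 spots, and the 3150 tested probes had array medians of -0.088, -0.080, 0.24 and 0.055 in replicates 1 to 4. The array as a whole was thus below 0 with TEA in Cy5 and above 0 with TEA in Cy3, and each member is best read beside these medians. The number of arrays limits the precision. In RNA from whole heads, fewer cells of a type and less RNA per cell cannot be told apart. Of the photoreceptor markers, Arr1 and inaD had values on all 4 arrays, while of 8 neuronal markers 1 was on the array and none had enough values to be tested.

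How much of each complex could be measured differed widely. Complex V had a value on at least 3 arrays for 9 of 11 probes, complex I for 12 of 21, complex IV for 3 of 6 and complex III for its 1 probe. Complex II was measured for 1 of 8 probes. In the mitochondrial ribosome, 7 of 21 small-subunit probes and 3 of 33 large-subunit probes were measured. These shares, 55.3% of 47 probes for complexes I to V and 18.5% of 54 probes for the ribosome, stood beside 19.1% of the 7558 probes with 1 symbol. They are given as a description, with no test. Of the 65 untested member probes, 64 had no value on any array and the complex I subunit ND-13B had 2. A missing value says only that the spots did not pass the submitters' filters on saturation, flags, uniformity and signal over noise, not that the transcript was absent.

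**Figure D1:**
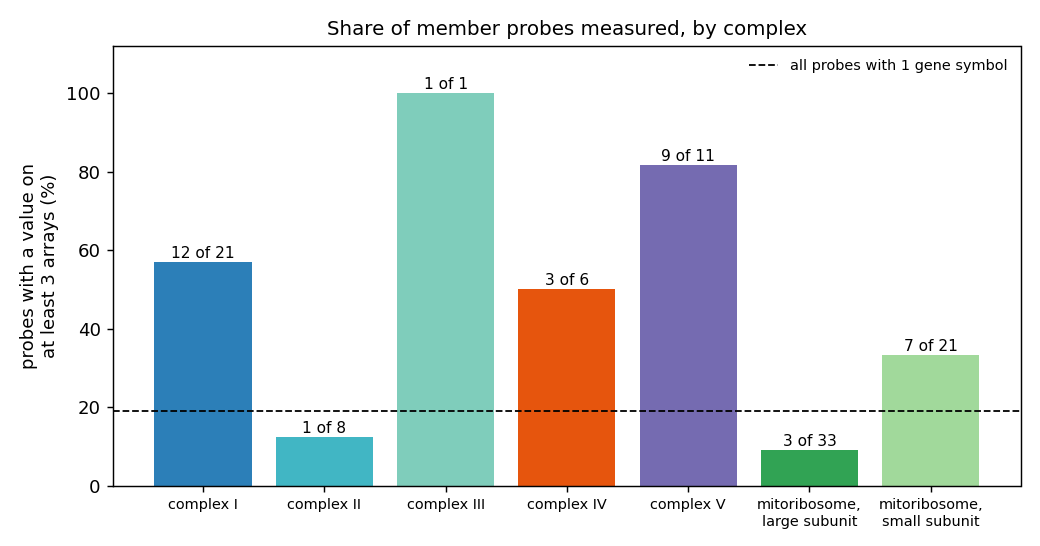
Share of the probes of each complex and ribosomal subunit (y axis, percent) that had a value on at least 3 of 4 arrays, with the counts above the bars. The dashed line is the share for all 7558 probes with 1 gene symbol, 19.1%; complexes I, III, IV and V and the small ribosomal subunit stand above it, complex II and the large subunit below it.

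Among the subunits of complexes I to V, few of the duplicate genes could be measured. Of the 10 genes with an added L, 1 was measured, COX6AL, on 1 of 10 probes, beside 19.1% of all probes with 1 symbol, and no test was made of this share. The other 9 (ND-24L, ND-51L2, SdhAL, SdhBL, SdhCL, COX6CL, COX7AL, ATPsynbetaL and ATPsynGL) had no value on any array. Of the other 30 genes, 22 were measured, on 25 of 37 probes or 67.6%. The 8 others without a tested probe were ND-13B, ND-18, ND-19, ND-42, ND-75, ND-B18, SdhB and SdhC. ND-42 and the iron-sulphur core subunit ND-75 belong to complex I, and SdhB is the iron-sulphur subunit of succinate dehydrogenase. In the ribosome, 26 of 29 large-subunit genes and 12 of 19 small-subunit genes had no tested probe, so the large subunit is described below by mRpL18, mRpL37 and mRpL40 alone.

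The design asks which transcripts of heads responded to 7 days of TEA in the food. None of the 36 probes passed the threshold of an adjusted p under 0.05 (limma, Benjamini-Hochberg over all 3150 probes), against 20 of 3150 probes, or 0.635%, over the whole array. At an unadjusted p under 0.05 there were 2, COX6AL and ATPsynC, or 5.56% of the 36, against 8.98% of all tested probes. Of the 36 means, 19 lay above 0 and 17 below, with a median of 0.010 (against 0.026 over all tested probes), and 33 lay within 0.25 of 0. The 95% interval, which is not adjusted for the number of probes, stayed inside -0.5 to 0.5 for 20 of the 36 probes and inside -1 to 1 for all 36. A missed threshold does not show that a transcript was unchanged, and these intervals give the sizes the arrays leave possible. The spread between arrays was smaller for these probes than over the whole array, with a median SD of 0.24 against 0.30.

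**Figure D2:**
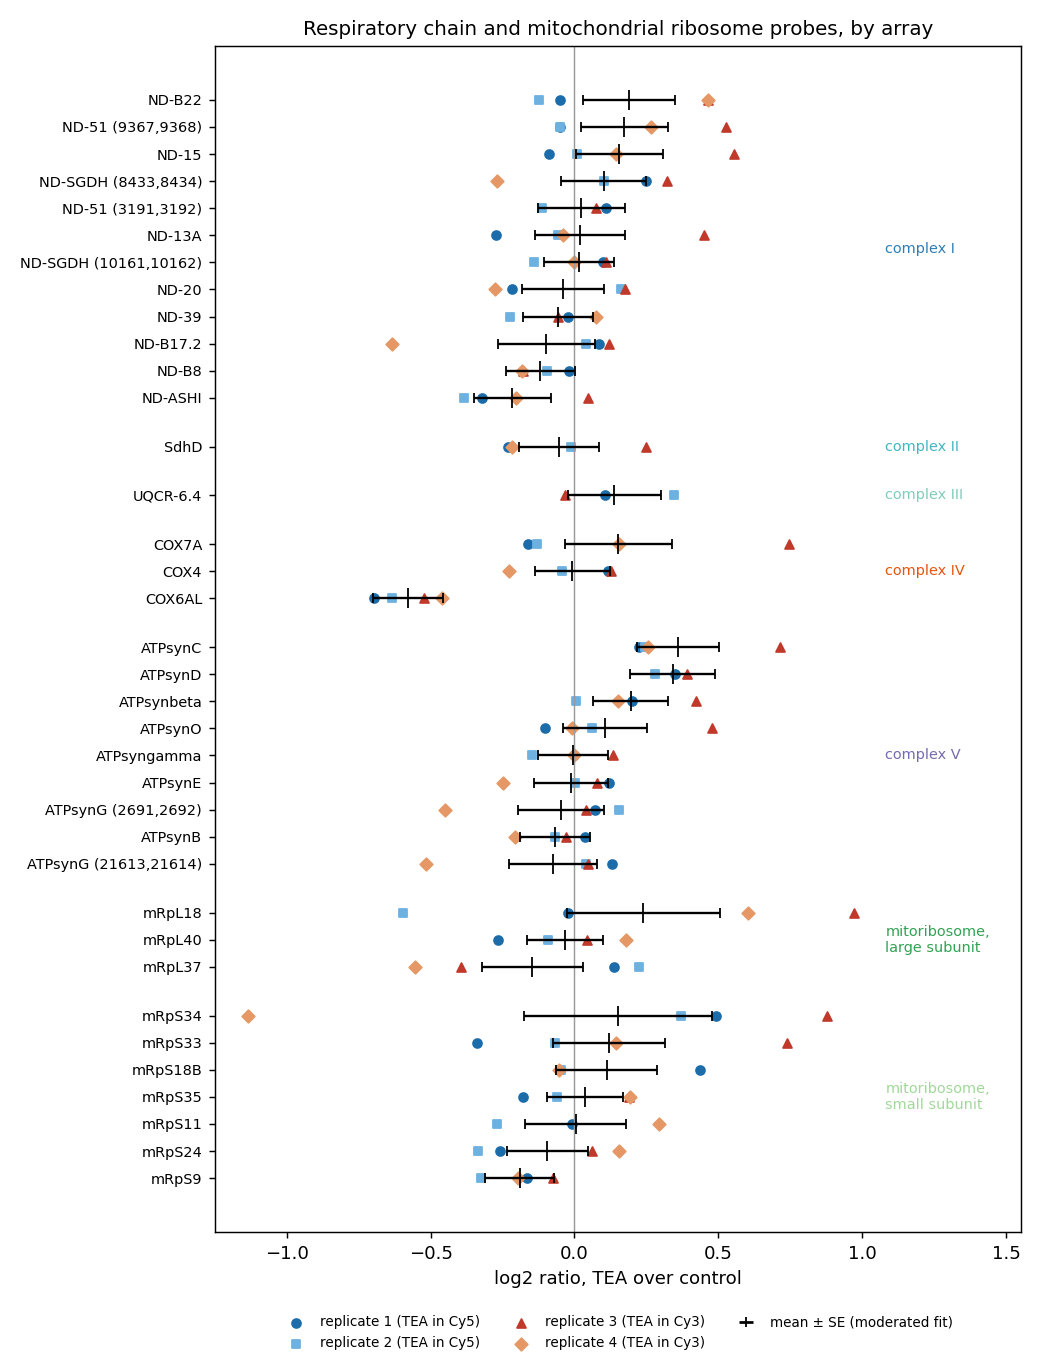
Log2 ratio of TEA over control (x axis) for each of the 36 tested probes, 1 row each, by complex. Coloured symbols are the 4 arrays, and the black bar is the mean ± SE of the moderated fit; numbers in brackets are the spots of genes with more than 1 tested probe. COX6AL lies to the left on all 4 arrays, ATPsynC, ATPsynD and ATPsynbeta to the right on every array that measured them, and most other rows straddle 0.

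Complex IV held the member with the lowest mean. COX6AL, a duplicate of the gene for the COX6A subunit of cytochrome c oxidase, had -0.70, -0.63, -0.52 and -0.46 in replicates 1 to 4. All 4 arrays lay below 0, in both dye orientations, and close to each other. Its mean was -0.58 ± 0.12 (SE, n = 4; limma adjusted p = 0.175), a 0.669-fold level with TEA, and its 95% interval ran from -0.87 to -0.29. By p it ranked 47 among the 3150 tested probes. With the probes of a gene averaged before the fit, its adjusted p by limma was 0.071, also past no threshold. Over the 9 other settings fitted by probe with replicates 3 and 4 turned, its value lay between -0.67 and -0.49. The adjusted p by limma ran from 0.112 to 0.683. Most of these settings drop arrays or leave the mean as it was, so the narrow range is no measure of stability. With the swapped arrays not turned, COX6AL had a mean of -0.086 ± 0.27 (SE, n = 4).

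The positions before COX6AL in the probe table held lower values still. The position just before it was Not11, a subunit of the CCR4-NOT deadenylase, at -1.11 ± 0.12 (SE, n = 4; limma adjusted p = 0.038). CG3777, before that, had a mean of -1.43 ± 0.14 (SE, n = 4; limma adjusted p = 0.035). The unnamed probe preceding CG3777 had -1.73 ± 0.14 (SE, n = 4; limma adjusted p = 0.016). These 3 passed the threshold here, but no probe of the array passed with centred arrays, unturned arrays, a dye term or single spots. On each of the 4 arrays the value came closer to 0 at every step from that unnamed probe through CG3777, Not11 and COX6AL to the next position, an unnamed probe with a mean of -0.30. Naa20B, after that, had a mean of -0.22, while Trm7-34, before the whole run, had 0.22. Whether neighbouring rows of the table adjoin on the slide is not given in the sources used here, and the part of the neighbours in the COX6AL value was not tested. Of the 11 testis markers, 4 were on the array and 1 was measured, ocn, at -0.17, -0.093, -0.015 and -0.44 in replicates 1 to 4, and its part in the COX6AL value was not tested either.

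**Figure D3:**
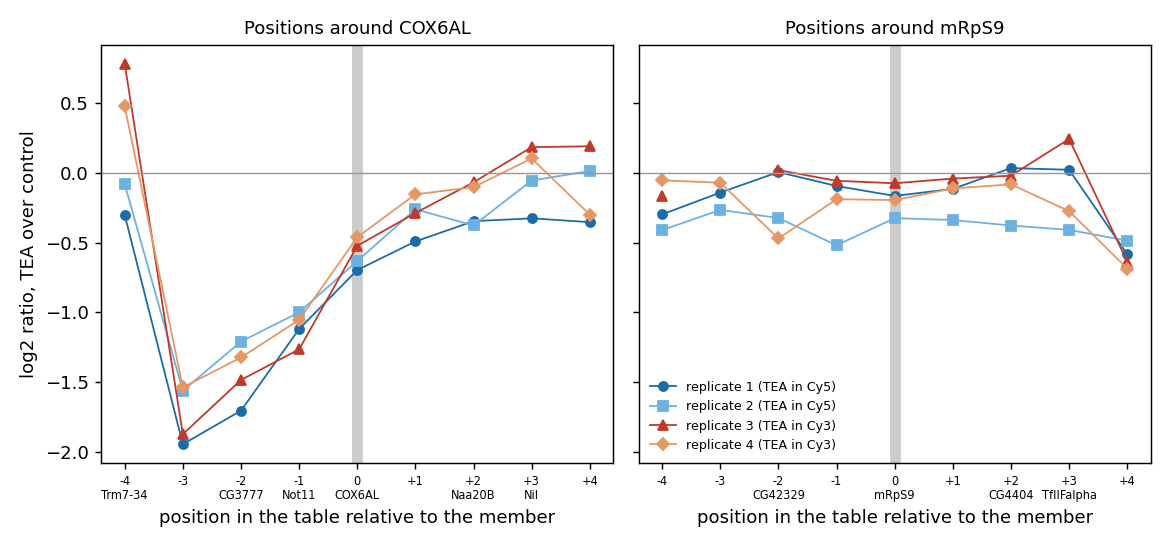
Log2 ratio of TEA over control on each array (y axis) at the 4 table positions before and after COX6AL (left) and mRpS9 (right), with gene names where the probe has 1. COX6AL sits on a slope that starts at -1.73 (mean of 4 arrays) 3 positions earlier, and mRpS9 sits in a run of positions with means between -0.23 and -0.11 that ends at -0.60.

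COX6AL lay below the gene it duplicates with the swapped arrays turned. The COX6A subunit is encoded by levy, which the naming rule does not take in, and levy had 0.041, 0.19, 0.54 and -0.045 in replicates 1 to 4, with a mean of 0.18 ± 0.15 (SE, n = 4; limma adjusted p = 0.814). COX6AL lay below levy on each array, by 0.74, 0.82, 1.07 and 0.42. The mean difference of COX6AL minus levy was -0.76 ± 0.27 (SD, n = 4). With the swapped arrays not turned, levy had a mean of -0.068 and the difference was -0.018 ± 0.92 (SD, n = 4), so the gap rests on the turning. The pair was chosen with the COX6AL value known, and the difference is a description with no test.

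The other 2 measured subunits of complex IV lay near 0. COX7A, a small accessory subunit, had -0.16, -0.13, 0.75 and 0.15 in replicates 1 to 4, with a mean of 0.15 ± 0.19 (SE, n = 4). Its arrays split by dye orientation, with both TEA-in-Cy5 arrays below 0 and both TEA-in-Cy3 arrays above. COX4, another nuclear subunit of cytochrome c oxidase, had 0.12, -0.045, 0.13 and -0.23 in replicates 1 to 4, and its mean was -0.0070 ± 0.13 (SE, n = 4), with a 95% interval from -0.32 to 0.30.

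Complex V, the ATP synthase, held the 2 highest means of all members. ATPsynC, which forms the rotor ring that turns as protons cross the membrane, had 0.22, 0.25, 0.71 and 0.26 in replicates 1 to 4. All 4 arrays lay above 0, and replicate 3 stood well above the others. Its mean was 0.36 ± 0.14 (SE, n = 4; limma adjusted p = 0.531), a 1.28-fold level with TEA, with a 95% interval from 0.018 to 0.70; without replicate 3 the mean was 0.24. ATPsynD, a part of the peripheral stalk, had 0.35, 0.28 and 0.39 in replicates 1 to 3 and none in replicate 4. The 3 arrays lay closer together than those of any other member, with an SD of 0.056, though most other members had 4 arrays. Its duplicate spots differed by a median of 0.165, against 0.0915 over the members. In replicate 4, which it lacks, 6 of 8 measured complex V probes lay below 0. The mean of ATPsynD was 0.34 ± 0.15 (SE, n = 3; limma adjusted p = 0.612), over arrays that do not balance the dyes. With the swapped arrays not turned, ATPsynC stood at -0.12 ± 0.19 (SE) and ATPsynD at 0.079 ± 0.20, so the sign of ATPsynC depends on the turning. In the probe table, the unnamed probe just before ATPsynC had a mean of -0.14, and the position after it was not tested.

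The catalytic subunit, the central shaft and the other stalk proteins had lower means. ATPsynbeta, the catalytic subunit, had 0.20, 0.0070, 0.42 and 0.15 in replicates 1 to 4, above 0 on all 4 arrays, with a mean of 0.19 ± 0.13 (SE, n = 4). The sign of ATPsynbeta was also turned when the swapped arrays were not (-0.091), and neither of the positions beside it in the table was tested. ATPsynO, the protein that joins the peripheral stalk to the catalytic head, had -0.10, 0.060, 0.48 and -0.0095 in replicates 1 to 4, with a mean of 0.11 ± 0.15 (SE, n = 4). Replicate 3 alone carried that mean, since the other 3 arrays lay near 0. ATPsyngamma, the central shaft, had -0.0020, -0.15, 0.13 and -0.0025 in replicates 1 to 4, with a mean of -0.0049 ± 0.12 (SE, n = 4). ATPsynB, in the peripheral stalk, had 0.035, -0.068, -0.028 and -0.21 in replicates 1 to 4, with a mean of -0.067 ± 0.12 (SE, n = 4). Neither kept 1 sign, and of their 8 values the farthest from 0 was that of ATPsynB in replicate 4.

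The subunits of the membrane sector that help pair ATP synthase into dimers were ATPsynE and ATPsynG. ATPsynG was measured by 2 probes, which agreed closely array by array. The probe at spots 2691 and 2692 had 0.071, 0.16, 0.041 and -0.45 in replicates 1 to 4, and the probe at spots 21613 and 21614 had 0.13, 0.040, 0.049 and -0.52 in replicates 1 to 4. Both lay above 0 in replicates 1 to 3 and well below 0 in replicate 4, and on no array did they differ by more than 0.12. Their means were -0.046 ± 0.15 and -0.074 ± 0.15 (SE, n = 4 each). ATPsynE had 0.12, 0.0035, 0.077 and -0.25 in replicates 1 to 4, with a mean of -0.012 ± 0.13 (SE, n = 4), and was lowest in replicate 4 as well. Over complex V as a whole, 6 of 8 probes lay below 0 in replicate 4, against 2 of 9 in replicate 1, 2 of 9 in replicate 2 and 1 of 9 in replicate 3. Of all tested probes, 61.6%, 61.5%, 25.3% and 43.3% lay below 0 in replicates 1 to 4.

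Complex I was measured by 12 probes for 10 genes, with 7 means above 0 and 5 below and a median of 0.018. Its highest and lowest means belonged to accessory subunits. ND-B22 had -0.050, -0.12, 0.46 and 0.46 in replicates 1 to 4, with a mean of 0.19 ± 0.16 (SE, n = 4). Both arrays with TEA in Cy5 lay below 0 and both with TEA in Cy3 above, close to each other within each orientation. ND-ASHI, at the low end, had -0.32, -0.39, 0.047 and -0.20 in replicates 1 to 4, with a mean of -0.22 ± 0.13 (SE, n = 4; limma adjusted p = 0.771). It lay below 0 on every array other than replicate 3. ND-B8 was the only complex I probe below 0 on all 4 arrays, at -0.018, -0.096, -0.18 and -0.18 in replicates 1 to 4, with a mean of -0.12 ± 0.12 (SE, n = 4). The position after ND-B8 in the table, the import chaperone Tim9a, had a mean of 0.035, and the one before it was not tested.

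Core subunits of complex I could be followed with 2 genes. ND-51 binds the flavin that takes electrons from NADH, and ND-20 carries the iron-sulphur cluster that passes them to ubiquinone. The ND-51 probe at spots 9367 and 9368 had -0.052, -0.050, 0.53 and 0.27 in replicates 1 to 4, and the one at spots 3191 and 3192 had 0.11, -0.11 and 0.074 in replicates 1 to 3. Of these probes, the first was below 0 with TEA in Cy5 and above 0 with TEA in Cy3. Their means were 0.17 ± 0.15 (SE, n = 4) and 0.024 ± 0.15 (SE, n = 3), and the largest gap between them on 1 array was 0.45, in replicate 3. ND-20 had -0.22, 0.16, 0.18 and -0.28 in replicates 1 to 4, with a mean of -0.039 ± 0.14 (SE, n = 4), and its signs followed neither dye orientation.

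The other accessory subunits of complex I had means between those of ND-ASHI and ND-B22. ND-SGDH had 2 probes, at spots 8433 and 8434 with 0.25, 0.10, 0.32 and -0.27 in replicates 1 to 4, and at spots 10161 and 10162 with 0.098, -0.14, 0.11 and -0.00050 in replicates 1 to 4. Their means were 0.10 ± 0.15 and 0.017 ± 0.12 (SE, n = 4 each), and neither kept 1 sign over the arrays. ND-15 had -0.089, 0.0095, 0.56 and 0.14 in replicates 1 to 4, with a mean of 0.16 ± 0.15 (SE, n = 4), and ND-13A had -0.27, -0.058, 0.45 and -0.038 in replicates 1 to 4, with a mean of 0.020 ± 0.16 (SE, n = 4). In both, replicate 3 was well above the other 3 arrays. ND-39 had -0.021, -0.22, -0.058 and 0.073 in replicates 1 to 4, with a mean of -0.057 ± 0.12 (SE, n = 4). ND-B17.2 had 0.086, 0.039, 0.12 and -0.64 in replicates 1 to 4, with a mean of -0.098 ± 0.17 (SE, n = 4). Only replicate 4 lay below 0 in ND-B17.2, so 1 array gave its mean the sign, which without replicate 4 was 0.082.

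Complexes II and III rested on 1 probe each. Complex II was represented by SdhD, a membrane anchor of succinate dehydrogenase, with -0.23, -0.013, 0.25 and -0.22 in replicates 1 to 4 and a mean of -0.053 ± 0.14 (SE, n = 4). Complex III was represented by UQCR-6.4, a small accessory subunit, with 0.10, 0.35 and -0.034 in replicates 1 to 3 and a mean of 0.14 ± 0.16 (SE, n = 3). The duplicate spots of UQCR-6.4 differed by up to 0.56 on an array. No further statement can be made of these complexes from 1 subunit.

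The mitochondrial ribosome showed wider spreads than the complexes in some members. In its large subunit, mRpL18 had -0.021, -0.59, 0.97 and 0.60 in replicates 1 to 4, with a mean of 0.24 ± 0.27 (SE, n = 4). mRpL37, a protein without a bacterial counterpart, ran the other way, at 0.14, 0.22, -0.39 and -0.55 in replicates 1 to 4, with a mean of -0.15 ± 0.18 (SE, n = 4). Both split by dye orientation, in opposite directions. The duplicate spots of mRpL18 differed by a median of 0.275 and by up to 0.73, against a median of 0.0915 over the members. mRpL40 had -0.27, -0.091, 0.043 and 0.18 in replicates 1 to 4 and a mean of -0.034 ± 0.13 (SE, n = 4), and split by dye orientation in the direction of mRpL18. Of the ribosomal probes with 4 values, 6 of 8 changed sign between the dye orientations. That compares with 3 of 23 in complexes I to V and 631 of 2437 over the array.

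In the small subunit, mRpS9 was the only member with 1 sign on all 4 arrays. It had -0.17, -0.33, -0.075 and -0.20 in replicates 1 to 4, with a mean of -0.19 ± 0.12 (SE, n = 4; limma adjusted p = 0.776) and a 95% interval from -0.48 to 0.10. The tested positions around it also had means below 0, -0.22 just before it and -0.15 just after, and all 4 positions on either side were tested and negative. ND-ASHI in complex I also lay between positions of its own sign, at -0.14 before it and -0.22 after. Such likeness was common on the array: of the members with a tested position before them, 9 of 14, or 64.3%, shared its sign, against 66.8% of 1339 tested probes. The part of these neighbours in the mRpS9 value was not tested. mRpS34, a mitochondria-specific protein, had 0.49, 0.37, 0.88 and -1.13 in replicates 1 to 4, the widest spread of any member, with an SD of 0.88. Its mean was 0.15 ± 0.33 (SE, n = 4), and without replicate 4 it was 0.58. The duplicate spots of mRpS34 differed by at most 0.23 on any array, so the 2 spots shared the low value of replicate 4.

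Of the remaining small-subunit proteins, mRpS33 had -0.34, -0.068, 0.74 and 0.15 in replicates 1 to 4, with a mean of 0.12 ± 0.20 (SE, n = 4). Replicate 3 was the highest of its 4 values, and the sign followed the dye orientation. mRpS35 had -0.18, -0.061, 0.19 and 0.19 in replicates 1 to 4 and mRpS24 had -0.26, -0.34, 0.062 and 0.15 in replicates 1 to 4, both again split by dye orientation, with means of 0.036 ± 0.13 and -0.094 ± 0.14 (SE, n = 4 each). mRpS11, which has a bacterial counterpart, had -0.0095, -0.27 and 0.29 in replicates 1, 2 and 4, with a mean of 0.0042 ± 0.18 (SE, n = 3). mRpS18B, one of several S18 variants of the mitochondrial ribosome, had 0.44, -0.048 and -0.054 in replicates 1, 2 and 4, with a mean of 0.11 ± 0.18 (SE, n = 3). Both lacked replicate 3. That array was the highest for 61.3% of the member probes with 4 values, against 56.6% of all such probes.

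Set side by side, the complexes and the ribosome had medians close to 0. Over the probe means these were 0.018 for complex I, -0.0070 for complex IV, -0.0049 for complex V, -0.034 for the large ribosomal subunit and 0.036 for the small one. Array by array, complex V had medians of 0.12, 0.040, 0.13 and -0.11 in replicates 1 to 4 and complex I had -0.036, -0.076, 0.15 and -0.038. The mitochondrial ribosome as a whole had -0.094, -0.080, 0.13 and 0.15. Complex V was thus above 0 in replicates 1 to 3 and below it in replicate 4, while the ribosome, like the array as a whole, was below 0 in replicates 1 and 2 and above 0 in replicates 3 and 4. Set against the median of all tested probes on the same array, complex V stood at 0.21, 0.12, -0.11 and -0.16. On that scale it was above the array with TEA in Cy5 and below it with TEA in Cy3, a split by dye orientation. Complex I, at 0.052, 0.003, -0.093 and -0.0935, had the same signs, as had all members together. Complex IV was below the array on all 4, but it had only 3 probes, and COX6AL was the lowest of them on every array. The complex IV median was thus the lower value of COX7A and COX4 on each array. The ribosome stood at -0.006, 0, -0.12 and 0.0945. The array medians themselves split by dye orientation, so a class that stays near 0 shows this split too.

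**Figure D4:**
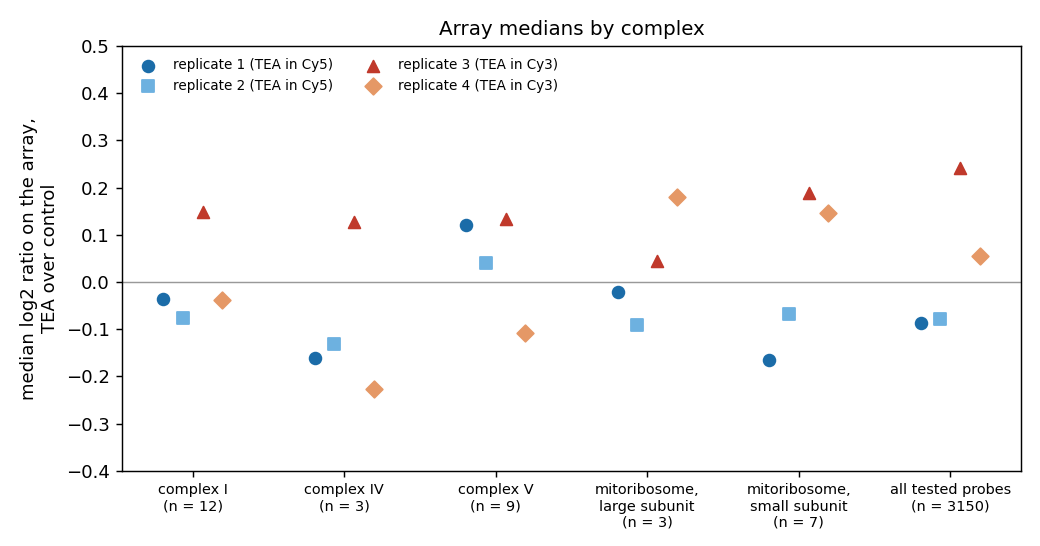
Median log2 ratio of TEA over control on each array (y axis) for complexes I, IV and V, the subunits of the mitochondrial ribosome and all tested probes, with the number of probes below each name. In replicate 4 (orange diamonds) the complexes lie below 0 and the ribosomal subunits and the array as a whole above it.

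Complexes I to V and the ribosome stood farthest apart in replicate 4. The median of the complexes minus that of the ribosome was 0.11, 0.051, 0.0047 and -0.33 in replicates 1 to 4. In replicate 4, 16 of 23 probes of the complexes lay below 0, or 69.6%, against 43.3% of all tested probes on that array. Of the 10 ribosomal probes, 4 did. The difference has no direction over the 4 arrays together, and no test was made of it. Across the member probes, the highest Pearson correlation was 0.63, between replicates 1 and 2 (36 probes), against 0.33 over all tested probes. The lowest was -0.43, between replicates 2 and 4 (33 probes), against -0.021. Replicates 3 and 4, the other pair with 1 dye orientation, had 0.37, against 0.17. Each of these describes probes measured on the same 2 arrays, and the probes are not independent replicates.

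One sign on all 4 arrays was found for 5 of the 31 member probes with 4 values, or 16.1%, against 16.0% of all such probes. Above 0 were ATPsynC and ATPsynbeta, 2 of 31 against 9.89% of all such probes, and below 0 were COX6AL, ND-B8 and mRpS9, 3 of 31 against 6.07%. The share of members was that of the array. The arrays were more often ordered by dye orientation: in 13 of the 31 probes, or 41.9%, both arrays with TEA in Cy3 lay above both with TEA in Cy5, against 43.3% of all probes. The opposite order held for 3 of 31, ND-B8, mRpL37 and the ATPsynG probe at spots 2691 and 2692, against 12.2%. By class, TEA in Cy3 lay above TEA in Cy5 in 5 of 11 probes of complex I and 2 of 3 of complex IV. The same order held in 1 of 8 of complex V and 5 of 8 of the ribosome. The 2 of complex IV were COX7A and COX6AL. No member and no other probe passed when the difference between the dye orientations was itself tested (limma, adjusted p under 0.05). With at most 2 arrays in each orientation, this does not show that the dye had no effect. On arrays of 1 dye orientation alone, an effect of the dye and one of TEA cannot be told apart.

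**Figure D5:**
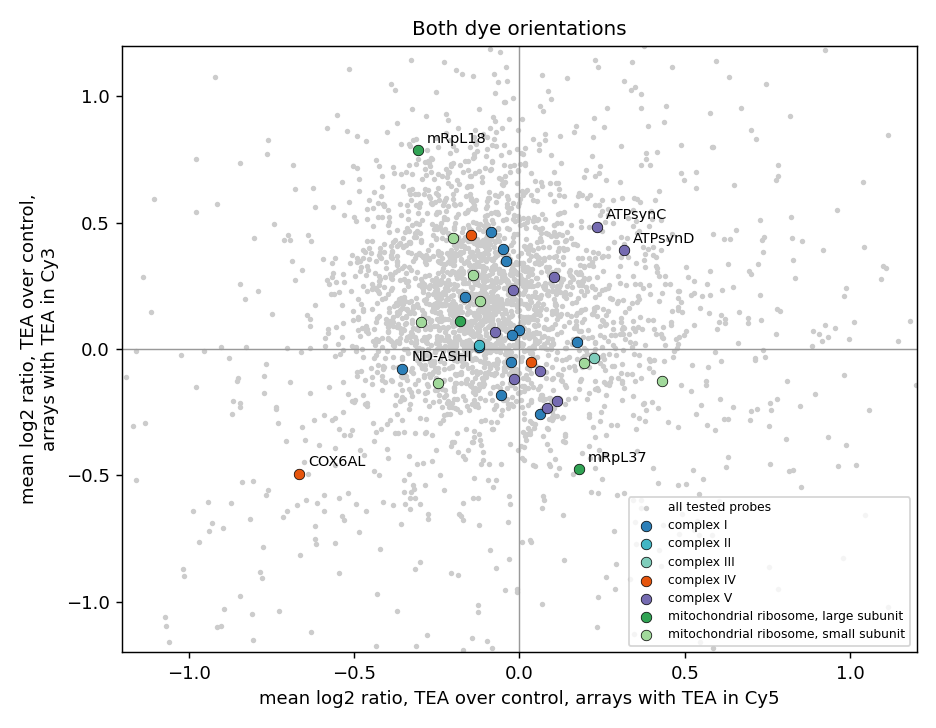
Mean log2 ratio of TEA over control on the arrays with TEA in Cy5 (x axis) and in Cy3 (y axis), for the 36 member probes coloured by complex and, in grey, for all tested probes; 137 probes lie beyond the axes. COX6AL lies at -0.67 and -0.49, and ATPsynC at 0.23 and 0.48, on the same side of 0 in both orientations, while mRpL18 and mRpL37 lie on opposite sides.

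Other genes of energy metabolism and mitochondria, in 8 lists, gave 20 tested probes for 19 genes. None passed (limma, adjusted p under 0.05), and 1, Gdh, had an unadjusted p under 0.05. In the list of the tricarboxylic acid cycle and pyruvate entry, 6 of 26 genes were measured, with a median of -0.048. Gdh, glutamate dehydrogenase, which feeds carbon from glutamate into the cycle, had -0.50, -0.30, -0.36 and -0.23 in replicates 1 to 4, with a mean of -0.35 ± 0.12 (SE, n = 4). Mdh1, the cytosolic malate dehydrogenase and so not itself an enzyme of the mitochondrial cycle, stood at 0.40 ± 0.18 (SE, n = 4). Of the 6 genes, 3 lay above 0 and 3 below. Among 6 measured carriers, import proteins and chaperones, also 3 above 0 and 3 below, the median was -0.039, with the import receptor Tom20 at -0.18 ± 0.14 (SE, n = 4) and the import chaperone Tim10 at -0.11 ± 0.12 (SE, n = 4). The iron-sulphur scaffold IscU stood at 0.14 ± 0.14 (SE, n = 4) and the mitochondrial peroxiredoxin Prx3 at 0.18 ± 0.12 (SE, n = 4). Cyt-c1, a cytochrome of complex III, stood at 0.021 ± 0.19 (SE, n = 3). Of the genes of mitochondrial dynamics, milt, an adaptor for mitochondrial transport, stood at -0.19 ± 0.13 (SE, n = 4), and the 2 probes of the fusion protein Marf disagreed, at 0.34 ± 0.23 (SE, n = 4) and -0.16 ± 0.12 (SE, n = 4). No gene of mitochondrial translation and DNA upkeep outside the ribosome, or of fatty acid beta-oxidation, was measured on enough arrays.

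Marker genes of head tissues were set beside these values. Of 12 muscle markers, 3 were measured (Act88F, Mlc2 and Zasp66), with array medians of -0.26, 0.0055, 0.15 and -0.071 in replicates 1 to 4. Of 10 photoreceptor markers, the 2 measured (Arr1 and inaD) had array medians of 0.18, 0.0092, 0.35 and 0.40. Of 6 glial markers, the 1 measured, Gs2, had 0.24, 0.56, 0.72 and 0.31. The fat body markers, with 4 of 6 genes measured, had 0.63, 0.63, 0.42 and 0.27. The fat body, glial and photoreceptor medians lay above 0 on all 4 arrays, without a probe past the threshold (limma, adjusted p under 0.05). Some probes in these lists went the other way. The photoreceptor marker inaD lay at -0.21 and -0.043 in replicates 2 and 4, where Arr1 alone held the median above 0. In the fat body, Lsp2 lay at -0.08 and -0.20 in replicates 3 and 4, and bgm at -0.28 in replicate 4. The part of these tissues in the values of the respiratory chain and ribosomal genes was not tested.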

How the data were processed

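Heads of TEA-fed and control flies were compared on 4 cDNA arrays, 1 per biological replicate. Per the labels, spots were quantified with GenePix Pro 6.0 and ratios normalised with Acuity 4.0, leaving out spots of raw intensity under 100. A filter then kept unflagged spots with few saturated pixels, a red over green regression R2 from 0.6 upwards and signal over noise from 3 upwards. The deposited values are log2 ratios, as a ceiling that equals a round ratio shows, and a filtered spot is empty. Here the 8 values at that ceiling were set to missing, replicates 3 and 4 were multiplied by -1, and duplicate neighbouring spots were averaged. Symbols were read from GEO's platform annotation and updated by identifier through RefSeq (Release 6); all 88 member symbols matched. No sequences are printed.

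Each probe measured on 3 or 4 arrays was set against 0 with limma 3.58.1 in R 4.3.3 (lmFit and eBayes, intercept only, two-sided, Benjamini-Hochberg over all 3150 probes, threshold 0.05), and the fit was tested on simulated data. Errors are moderated standard errors unless SD is stated. The p-values measure the spread between 4 pairs of pools. Members, pathway lists and markers were chosen with earlier results of these data known. Values per array are given for the highest and lowest probe of each complex, for probes with 1 sign on 4 arrays and for genes with several probes; COX4, COX7A and the other members shown array by array were added after their values were seen. In each pathway list the 2 genes with the smallest p were named. Alternatives were array centring, unturned arrays, a dye term, each replicate or dye orientation left out, a value on all arrays, single spots and gene means.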

Additional observations from a re-analysis of the deposited data

Results flagged for a closer look

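Among the 31 member probes with a value on all 4 arrays, 3 had 1 array that lay far from the other 3 for the range of the 4 values; chance alone sets apart about 1 in 20 such groups. That is 9.68% of the member probes, against 5.7% of all 2437 probes with 4 values. ND-B17.2 had -0.64 in replicate 4, against 0.039 to 0.12 in the other 3 replicates. ATPsynC had 0.71 in replicate 3, against 0.22 to 0.26 in the other 3 replicates. The probe of ATPsynG at spots 21613 and 21614 had -0.52 in replicate 4, against 0.040 to 0.13 in the other 3 replicates. In ATPsynG the second probe had -0.45 in the same replicate, which was also its lowest value.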

How the results depend on the processing

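No member passed under any of the alternatives run (limma, adjusted p under 0.05), while the count of passing probes over the whole array moved: against 20 probes it was 0 with centred arrays (310 at an unadjusted p under 0.05), unturned arrays (353), a dye term (427), single spots (497) or TEA in Cy3 alone (300), 3 with TEA in Cy5 alone, 12 genes with probes averaged, 18 of the 2437 probes with a value on all 4 arrays, and 0 to 4 with 1 replicate left out (178 to 331). Of 350 values of the members under alternatives, 274 kept their sign, and 76 turned. For probes with 4 values, the dye term and the fit to probes with all values leave the mean as it was. Those values could not turn, so the count kept is no measure of stability. Where the swapped arrays were not turned, the median was -0.16 for the small ribosomal subunit and -0.15 for the whole ribosome, and the members with the other sign were ATPsynB at 0.050, ATPsynC at -0.12, ATPsynE at 0.074, ATPsynG (spots 21613 and 21614) at 0.16, ATPsynG (spots 2691 and 2692) at 0.16, ATPsynO at -0.13, ATPsynbeta at -0.091, COX4 at 0.043, COX7A at -0.30, ND-13A at -0.18, ND-15 at -0.20, ND-20 at 0.012, ND-51 (spots 3191 and 3192) at -0.026, ND-51 (spots 9367 and 9368) at -0.22, ND-B17.2 at 0.16, ND-B22 at -0.28, ND-B8 at 0.062, ND-SGDH (spots 10161 and 10162) at -0.038, mRpL18 at -0.55, mRpL37 at 0.33, mRpS11 at -0.19, mRpS33 at -0.32 and mRpS35 at -0.16. With TEA in Cy5 alone the medians were -0.18 for the large subunit, -0.14 for the small one and -0.16 for the ribosome, and the turned members were ATPsynE at 0.062, ATPsynG (spots 21613 and 21614) at 0.084, ATPsynG (spots 2691 and 2692) at 0.11, ATPsynO at -0.021, COX4 at 0.036, COX7A at -0.15, ND-13A at -0.16, ND-15 at -0.040, ND-51 (spots 3191 and 3192) at -0.0012, ND-51 (spots 9367 and 9368) at -0.051, ND-B17.2 at 0.062, ND-B22 at -0.087, ND-SGDH (spots 10161 and 10162) at -0.022, mRpL18 at -0.31, mRpL37 at 0.18, mRpS11 at -0.14, mRpS33 at -0.20 and mRpS35 at -0.12. With TEA in Cy3 alone the large subunit had a median of 0.11, and the turned members were ATPsyngamma at 0.066, ND-39 at 0.0080, SdhD at 0.015, mRpL40 at 0.11, mRpS24 at 0.11 and mRpS34 at -0.13. Centring turned ND-13A at -0.012, ND-51 (spots 3191 and 3192) at -0.00058 and ND-SGDH (spots 10161 and 10162) at -0.016. Leaving out 1 replicate in turn gave ranges that crossed 0: ATPsynE -0.057 to 0.067, ATPsynG (spots 21613 and 21614) -0.14 to 0.072, ATPsynG (spots 2691 and 2692) -0.11 to 0.089, ATPsynO -0.017 to 0.18, ATPsyngamma -0.051 to 0.043, COX4 -0.051 to 0.066, COX7A -0.046 to 0.26, ND-13A -0.12 to 0.12, ND-20 -0.11 to 0.041, ND-51 (spots 3191 and 3192) -0.019 to 0.092, ND-B17.2 -0.17 to 0.082, ND-SGDH (spots 10161 and 10162) -0.015 to 0.069, SdhD -0.15 to 0.0060, mRpL18 -0.0043 to 0.52, mRpL40 -0.10 to 0.044, mRpS11 -0.14 to 0.14, mRpS18B -0.051 to 0.19, mRpS33 -0.086 to 0.27, mRpS34 -0.091 to 0.58, mRpS35 -0.017 to 0.11. The medians then ranged as follows: complex I -0.036 to 0.058, complex II -0.15 to 0.0060, complex III 0.035 to 0.23, complex IV -0.051 to 0.066, complex V -0.042 to 0.089, complexes I to V -0.049 to 0.070, mitochondrial ribosome -0.062 to 0.073, mitochondrial ribosome, large subunit -0.059 to 0.044, mitochondrial ribosome, small subunit -0.086 to 0.078. The cause of these turns was not tested; fewer arrays enter the fits on 1 dye orientation. COX6AL, ATPsynD, mRpS9, ND-ASHI, UQCR-6.4 and ND-SGDH (spots 8433 and 8434) kept their sign under every alternative in which their probe was fitted. COX6AL, ATPsynD and mRpS9 had 1 sign on every measured array, so leaving out arrays could not turn them. ATPsynD and UQCR-6.4 were not fitted with TEA in Cy3 alone, and the only such value of UQCR-6.4 was -0.034, the other sign. Each ratio pairs a TEA pool with its control on 1 array, so the fit is itself paired, and no further replicate block could be added. Signal over background per spot was not used here.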
